A study of Mus musculus with 120 samples.

Results

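The livers described here came from CC040 mice on the control diet, set against control-diet livers of 7 other Collaborative Cross strains. They were chosen by the labels alone: 5 libraries labelled CC040 and control diet (females 1 and 2, males 1 to 3), of 120 libraries in the series. The comparison group held the 42 control-diet libraries of CC011, CC013, CC019, CC032, CC041, CC042 and CC043, with 3 females and 3 males of each strain. CC003 and CC060 were set aside as libraries of another type, a distinction that the labels do not make library by library, and entered only as an alternative.

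The series profiled liver RNA of 10 strains, each in both sexes and on 2 diets, with 3 libraries in each of 40 groups. For 12 weeks mice ate either a control diet, matched but low in fat and reduced in sucrose, or a fattening diet (HF/HS) with milkfat as 42% of energy, 0.2% cholesterol and over 30% sucrose. Every library of the main comparison was from the control diet, and 5 CC040 and 42 other libraries from the HF/HS diet served as a second set in the same strains. The labels used here name no transgene or drug and give no age beyond the weeks on diet. They do not tie each library to its own mouse, so part of the spread between libraries may be technical. The p-values below, with strain as the unit, rest on the spread between the levels of the other strains. The spread between the CC040 libraries does not enter them.

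Collaborative Cross strains are inbred mouse lines, each a different fixed mosaic of the genomes of the same founder strains. All mice of a line share a genome, so any pair of lines differs in the alleles they carry in many blocks along every chromosome. In the mouse liver many genes are also expressed at different levels in females and males, through the pattern of growth hormone release and through androgens. Fatty acid hydroxylases of the Cyp4a12 group are a standard male marker and several sulfotransferases and Cyp3a enzymes are standard female markers. Lipid droplets, the fat stores of the hepatocyte, are enlarged by the CIDE proteins and coated by perilipins.

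Values were FPKM-like levels per gene that the authors had scaled so that the 75th percentile of every library was about 10. They sum to between 996721 and 1160710 in the CC040 control libraries and to between 964482 and 1365520 in the 42 others, and 32.2% to 33.7% against 30.6% to 35.5% of genes were listed at 0. The read depth behind them is unknown, and an exact 0 can be a failed estimate. The sex labels held in CC040: Xist, which silences an X chromosome, stood at 84.7 to 99.2 in females and 0.314 to 0.995 in males, and the Y-linked Ddx3y at 0.0124 to 0.0515 in females and 43.3 to 45.6 in males. The tissue label held too, since the 10 of 11 hepatocyte markers that were in the table, 1 of them at 0 in every CC040 library, summed to between 41869 and 47275 in CC040, inside the range of the other libraries (24667 to 59772). The column labelled CC040 control female 3 was equal in all 24882 complete rows to a CC040 HF/HS female column, so both were left out. CC040 control male 1 lay between males 2 and 3: of 228 genes that differed over 2-fold between those males, 75.4% had their value in male 1 near the middle of the gap, against 3.41% to 52% in the 46 other control libraries. By the same measure CC040 HF/HS male 1 was at 61.3% and CC032 HF/HS male 2 at 80.3%, and both are in the HF/HS comparison. Without that male all 23 genes called below were still called, and the highest adjusted p (limma) among them was 0.0421.

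Differences below are CC040 minus the mean of the 7 other strains on the log2(value + 1) scale, adjusted for sex, with strain as the unit; this scale understates the change of low genes. A gene was called when its adjusted p (limma, Benjamini-Hochberg over all genes tested) was under 0.05. Of 12065 genes tested, 23 were called (0.191%), 17 higher (0.141%) and 6 lower (0.0497%) in CC040. Genes tested had a mean of at least 1 over all 47 libraries, CC040 included. Cidea, Fam107a, Chil3, Amica1 and Ccdc148 were called higher with means of 0.234, 0.273, 0.405, 0.584 and 0.979 in the 42 others. They passed this filter only through CC040, as did the 6 microRNA genes below. With a mean of at least 5, 2 genes were called higher and 5 lower. With each library taken as a unit, which ignores that libraries of a strain are alike, 4734 genes (39.2%) would have been called. With 1 strain in the CC040 arm, the test assumes that CC040 varies like the other strains. Each of the 7 other strains put in the place of CC040 gave between 2 and 44 calls. In females alone 32 of 12076 genes were called, and in males alone 22 of 11925. Both counts include small RNA genes above 0 in 1 CC040 library, such as Mir1948 and Mir26b in females and Mir294 and Mir3075 in males. At an unadjusted p under 0.05, 307 genes were higher (2.54%) and 312 lower (2.59%) in CC040, 5.13% of those tested together.

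All 6 genes called lower had every CC040 library below every one of the 42 others. The largest difference was in Mreg, which encodes melanoregulin, a protein of organelle transport. Mreg stood at 2.57 and 0.621 in CC040 females and 1.33, 1.58 and 0.789 in CC040 males, against 10.5 to 43.3 (median 30.3) in the other strains. The groups did not overlap, and even the lowest library of the other strains stood several fold above the highest of CC040. The difference was -3.69 (SE 0.23, adjusted p 0.0022). Mreg lies on chromosome 1 at 72159233 to 72212307 (mm10, as are all positions given).

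Cpb2 encodes a plasma carboxypeptidase made by hepatocytes that slows the dissolving of clots. It stood at 75.4 and 68.0 in CC040 females and 72.0, 87.8 and 63.2 in CC040 males, against 362 to 684 (median 453) in the other strains. Both sexes of CC040 sat far below the lowest other library, and the 5 libraries were close to each other. The difference was -2.67 (SE 0.23, adjusted p 0.0077; chromosome 14, 75242287 to 75283553). F12, coagulation factor XII, chosen after its values were seen, pointed the same way without being called: 202 and 183 in CC040 females and 209, 209.8 and 195 in CC040 males, against 309 to 508 (median 426), a difference of -1.05 (adjusted p 0.140). Of 21 coagulation genes tested, Cpb2 was the only one called, 2 had an unadjusted p under 0.05, both lower, and the median difference was -0.10, against -0.02 over all genes.

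Gclm encodes the modifier subunit of glutamate-cysteine ligase, the enzyme that sets the pace of glutathione synthesis. Its level was 37.5 and 41.0 in CC040 females and 37.7, 37.0 and 38.3 in CC040 males, against 77.9 to 129 (median 97.1) in the other strains. The CC040 libraries lay within a few units of each other and none reached the other strains. The difference was -1.34 (SE 0.14, adjusted p 0.0131; chromosome 3, 122245557 to 122267215). Gclc, the catalytic subunit of the same enzyme, chosen after its values were seen, was 79.7 to 133 in CC040 and 79.7 to 249 in the others, so the groups overlapped, and its difference of -0.35 was not called (unadjusted p 0.111). Of 19 genes tested from a list of NRF2 and oxidative stress genes, which includes Gclm, Gclm alone was called. In this list 2 had an unadjusted p under 0.05 (limma), both lower, and the median was -0.11.

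Bco2 encodes the mitochondrial enzyme that cleaves carotenoids away from the centre of the molecule. It stood at 5.88 and 4.60 in CC040 females and 6.88, 6.77 and 6.08 in CC040 males, against 12.2 to 25.5 (median 19.9) in the other strains. No CC040 library reached the others. The difference was -1.55 (SE 0.17, adjusted p 0.0131; chromosome 9, 50533087 to 50555138). Bco1, which cleaves beta-carotene at its centre to give vitamin A and was chosen after its values were seen, overlapped between the groups: 6.42 to 9.54 in CC040 against 5.18 to 12.9.

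The other genes called lower were Mrrf and Hacd1. Mrrf, a factor that recycles mitochondrial ribosomes, was 8.25 to 10.9 in CC040 against 15.3 to 22.6 in the other strains (difference -0.95, SE 0.11, adjusted p 0.0142; chromosome 2, 36136398 to 36190283). Hacd1, a dehydratase of the elongation cycle of very long-chain fatty acids, was 9.09 and 6.71 in CC040 females and 5.38, 6.89 and 3.37 in CC040 males, against 13.9 to 44.2 (difference -1.70, SE 0.24, adjusted p 0.0477; chromosome 2, 14026831 to 14056035). Hacd1 was a weak call: it was lost in 15 of the 54 fits that left out 1 library or 1 strain, among them the fit without CC040 male 3 (adjusted p 0.0524), with a highest adjusted p of 0.110. Mrrf kept its call in all 54, but lost it when CC003 and CC060 were added (-0.85, adjusted p 0.647).

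Among the genes higher in CC040, 11 had values above 0 in all 5 libraries. Cast encodes calpastatin, the inhibitor of the calpain proteases. Cast was 38.6 and 44.2 in CC040 females and 46.5, 47.3 and 47.2 in CC040 males, against 15.5 to 24.1 (median 19) in the other strains. All 5 libraries lay above the 42 others. The difference was 1.15 (SE 0.12, adjusted p 0.0131; chromosome 13, 74693294 to 74808760); with CC003 and CC060 added it was 1.20 (adjusted p 0.0593).

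Fam107a, which encodes an actin-associated protein described mainly in the brain, was near 0 in most other livers. Its level was 1.80 and 4.30 in CC040 females and 17.4, 15.5 and 19.4 in CC040 males, against 0.00126 to 2.42 (median 0.134). The males stood well above every other library and the lower CC040 female overlapped with the highest of the others. The difference was 2.96 (SE 0.22, adjusted p 0.0051; chromosome 14, 8296278 to 8309776).

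Chil3 encodes a chitinase-like protein secreted by myeloid cells. It was 12.2 and 7.71 in CC040 females and 10.5, 10.7 and 9.25 in CC040 males, against 0 to 9.74 (median 0.051) in the other strains. Most of the others were close to 0, and 1 high library among them, CC011 female 2, overlapped with the lower CC040 libraries. The difference was 3.2 (SE 0.32, adjusted p 0.0131; chromosome 3, 106147554 to 106167564). In bulk liver RNA, more cells of a type and more RNA per cell cannot be told apart. Of 5 neutrophil markers 4 were in the table, none at 0 throughout CC040, and their sum was 35.1 to 121 in CC040 against 2.22 to 568 (median 9.54). S100a8 and S100a9, calcium-binding proteins of neutrophils, were at 13.4 to 57.1 and 16.2 to 57.6 in CC040, against medians of 3.70 and 4.53 in the others. Neither was called, with a difference of 2.39 for S100a8 (unadjusted p 0.0212) and 2.2 for S100a9 (unadjusted p 0.0414), and their part in the Chil3 result was not tested. S100a9 was named after its values were seen. The 10 Kupffer cell markers summed to 549 to 769 in CC040 and 224 to 1681 (median 483) in the others.

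Amica1 encodes an adhesion molecule of leukocytes, and it varied within CC040: 1.13 and 1.60 in females, and 10.0, 17.8 and 2.2 in males, against 0.155 to 2.06 (median 0.515). The 2 CC040 females lay within the range of the other strains and the 3 males above it (difference 1.72, SE 0.21, adjusted p 0.0206; chromosome 9, 45079183 to 45108531). Its call was lost without strain CC011 (adjusted p 0.0505) and without strain CC042 (adjusted p 0.0553), and when CC003 and CC060 were added (adjusted p 0.0583). T cell markers summed to 2.18 to 10.2 in CC040 and 1.04 to 16.1 in the others, and their part in the Amica1 result was not tested.

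Tmc7, a member of the transmembrane channel-like family, was 4.05 and 6.69 in CC040 females and 5.88, 5.80 and 5.79 in CC040 males, against 0 to 2.94 (difference 1.83, SE 0.19, adjusted p 0.0131; chromosome 7, 118535844 to 118584686). Prok1, a secreted ligand of prokineticin receptors, was 17.2 and 9.02 in CC040 females and 7.36, 6.23 and 5.48 in CC040 males, against 0 to 3.98 (difference 2.03, SE 0.26, adjusted p 0.0303; chromosome 3, 107235531 to 107239707). Kin, a nuclear DNA- and RNA-binding protein, was 21.9 to 28.6 in CC040 against 7.94 to 14.7 (difference 0.996, SE 0.14, adjusted p 0.0477; chromosome 2, 10080612 to 10092701). Ccdc148, a coiled-coil protein, was 4.57 to 5.54 in CC040 against 0.454 to 2.05 (difference 1.61, SE 0.23, adjusted p 0.0495; chromosome 2, 58821698 to 59018606). In none of these 4 genes did the groups overlap. Of the 54 fits that left out 1 library or 1 strain, Kin kept its call in 36, Ccdc148 in 33, Prok1 in 47 and Tmc7 in all. With CC003 and CC060 added Kin was not called (adjusted p 0.119). The calls lost included Kin without CC040 female 2 (adjusted p 0.0529), Ccdc148 without CC040 female 1 (adjusted p 0.0576) and Prok1 without CC040 female 1 (adjusted p 0.0592). The 2 remaining genes of this kind are known by clone names: D630033O11Rik was 10.0 to 14.6 in CC040 against 0.494 to 3.76, and 1810055G02Rik was 65.3 to 88.2 against 10.5 to 73.1. Both were named after their values were seen, and D630033O11Rik lost its call when CC003 and CC060 were added (adjusted p 0.647) and 1810055G02Rik without CC043 female 3 (adjusted p 0.0528).

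**Figure D1:**
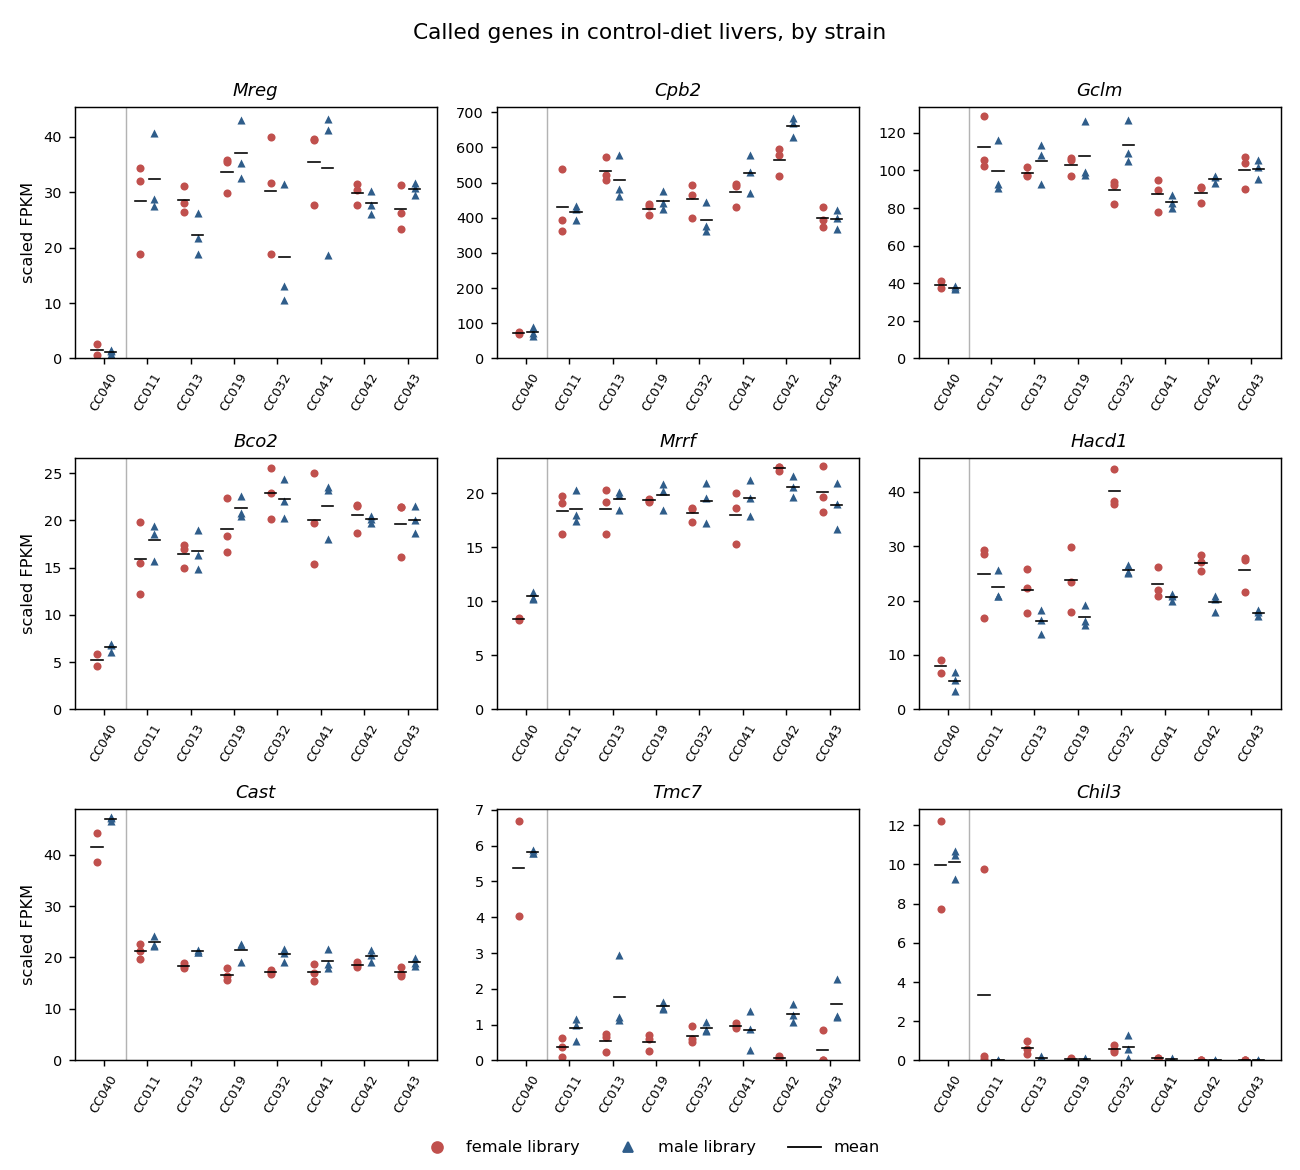
Levels of called genes in control-diet livers, as scaled FPKM from 0, with 1 point per library, a line at the mean of each sex, and CC040 left of the 7 other strains. Mreg, Cpb2, Gclm, Bco2, Mrrf and Hacd1 of CC040 lie below, and Cast and Tmc7 above, every library of the other strains, and Chil3 overlaps with 1 CC011 female at 9.74.

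The other 6 genes called higher were microRNA genes, of which Mir877 and Mir7063 were named after their values were seen. Mir1948 (713), Mir26b (357), Mir877 (357) and Mir7063 (205) were above 0 in CC040 female 1 alone, and Mir294 (534) and Mir3075 (485) in CC040 male 2 alone. All 4 other CC040 libraries and all 42 libraries of the other strains were listed at 0 for each of them, so each call rests on 1 library. Leaving out genes above 0 in fewer than 3 libraries, an alternative chosen after seeing the data, gave 14 calls in place of 23. With a pseudocount of 0.1 in place of 1, these 6 and Amica1, Ccdc148, Chil3, Cidea, Hacd1, Kin, Prok1 and Tmc7 were no longer called.

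Cidea promotes the fusion of lipid droplets and is normally low in the liver of lean mice. It was high in CC040 males only: 0.115 and 0.0556 in CC040 females and 43.9, 48.1 and 36.8 in CC040 males, against 0 to 0.84 in females and 0 to 4.32 in males of the other strains. The CC040 females lay within the range of other females, and every CC040 male stood far above the highest other male. The sex-adjusted difference was 3.05 (SE 0.34, adjusted p 0.0131), made up of -0.04 in females and 5.19 in males. The male minus female difference was 5.33 in CC040 and 0.11 on average in the others, and this gap differed by 5.23 (SE 0.36, adjusted p 0.000171). Cidea lies on chromosome 18 at 67343564 to 67367794.

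Other genes of fat storage were higher in CC040 without passing the threshold over all genes; those named next were chosen after their values were seen. Plin4, a perilipin of the droplet surface, was 6.63 and 7.83 in CC040 females and 21.8, 21.1 and 21.8 in CC040 males, against 1.18 to 26.8 (median 2.68), with a difference of 1.93 (adjusted p 0.0682). The 3 males lay above all other males, whose highest value was 5.51, and in males alone Plin4 was called (2.74, adjusted p 0.0264). Cidec, the CIDE protein of large droplets, was 3.26 and 7.38 in CC040 females and 22.7, 9.29 and 34.6 in CC040 males, against 0.532 to 1.86 in other females and 0.171 to 22 in other males. Its difference was 2.50 (adjusted p 0.156), and in females alone it was called (1.49, adjusted p 0.0346). Plin5, the perilipin that tethers droplets to mitochondria, was 66.4 to 103 in CC040 against 21.5 to 216 (median 41.8; unadjusted p 0.0068). Of 24 lipid droplet and storage genes tested, 19 were higher and 5 lower in CC040. Cidea alone was called, and 4 had an unadjusted p under 0.05 (limma), all higher. The median difference was 0.45, against -0.02 over all genes.

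The gap between the sexes was then tested gene by gene, as the male minus female difference of CC040 against that of the 7 other strains. It was called for 19 genes (0.157%), 8 with a larger (0.0663%) and 11 with a smaller (0.0912%) male minus female difference in CC040; at an unadjusted p under 0.05 there were 695 (5.76%). Of the 19 called, 11 were small RNA genes above 0 in 1 CC040 library, and 8 had values in all 5, among them Cyp4a12a, Cyp4a12b, Cidea, Fam107a, Dusp14, Amica1 and Hsd3b4. Among them, Cyp4a12b, Dusp14 and Hsd3b4 were named after their values were seen. With a pseudocount of 0.1, the gap was no longer called for Cyp4a12a (adjusted p 0.0989), Cidea (0.0722), Fam107a (0.717) and Amica1 (0.356), and with a pseudocount of 5 not for Cyp4a12b (0.176).

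Cyp4a12a hydroxylates fatty acids, arachidonic acid among them, and is a male marker of the mouse liver. It stood at 99.0 and 189 in CC040 females and 532, 483 and 593 in CC040 males, against 0.0971 to 4.46 (median 0.793) in other females and 236 to 683 (median 417) in other males. Both CC040 females lay far above every other female, while the CC040 males lay within the range of other males. The male minus female difference was 1.96 in CC040 and 7.77 in the others, a difference of -5.81 (SE 0.31, adjusted p 4.16e-05). In females alone CC040 was higher by 6.19 (adjusted p 0.0023), and in males the difference was 0.38. Over both sexes the difference of 2.76 was not called (adjusted p 0.054).

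Its neighbour Cyp4a12b, chosen after its values were seen, is a near copy of Cyp4a12a, so reads could be split between them and the pair is best read together. Cyp4a12b was 27.1 and 51.2 in CC040 females and 139, 128 and 152 in CC040 males, against 0.014 to 2.75 in other females and 50.5 to 241 in other males. The pattern was the same: CC040 females stood apart from all other females, and CC040 males did not stand apart from other males. The sex gap differed by -4.65 (adjusted p 7.49e-05). The genes lie on chromosome 4 at 115299046 to 115332815 (Cyp4a12a) and 115411624 to 115439034 (Cyp4a12b).

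Fam107a, described above, also had a wider gap in CC040. Its male minus female difference was 2.25 in CC040 and 0.12 in the others, a difference of 2.13 (SE 0.21, adjusted p 0.00296).

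The 2 CC040 control females differed from each other in female-biased genes, of which Cyp3a41a and Sult2a1 were named after their values were seen. Sult3a1, a female-biased sulfotransferase, was 289 in CC040 female 1 and 1.91 in female 2, and 1.02 to 4.20 in CC040 males, against 401 to 3454 (median 1975) in other females. Both CC040 females lay below all other females, and female 2 lay at the level of males. Cyp3a41a, a female-biased drug-metabolising enzyme, was 1628 in female 1, 25.1 in female 2 and 11.4 to 30.6 in CC040 males, against 1687 to 6316 in other females. Cux2, a female-biased transcription factor that represses male-biased genes, was 3.78 in female 1 and 0.743 in female 2, against 2.33 to 16.3 in other females.

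The same split was seen in Sult2a1, a sulfotransferase of steroids and bile acids, which was 93.2 in female 1 and 0.238 in female 2, against 3.27 to 3252 in other females. None of the sex gaps of these 4 genes was called; the lowest adjusted p was 0.0622, for Sult3a1. On the HF/HS diet, Cyp3a41a was 969 in CC040 female 2 and 54.9 in CC040 female 3, both below the lowest other HF/HS female (1085) and female 3 far lower than female 2. Over 20 female-biased genes tested, none was called and 3 had an unadjusted p under 0.05, all lower. In females alone, where 32 of 12076 genes were called, Cyp3a41a (-3.93, adjusted p 0.0279) and Cyp2c37 (-2.09, adjusted p 0.0346) were called lower. The median difference of the list was -1.83 in females and 0.33 in males. Over 20 male-biased genes, 2 were higher and 1 was lower at an unadjusted p under 0.05, and the median was 1.21 in females and -0.44 in males. With 2 CC040 females, a value in females can rest on either one.

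Bcl6, a male-biased repressor of female-biased liver genes, was 17.4 and 22.9 in CC040 females and 15.1, 11.6 and 20.9 in CC040 males, against 2.09 to 15.4 in other females and 2.37 to 31.3 in other males. Both CC040 females lay above every other female and the males lay within the range of other males; Bcl6 was called in females alone (2.1, adjusted p 0.0211). Cish, a growth hormone-induced inhibitor of cytokine signalling chosen after its values were seen, was 2.94 and 2.68 in CC040 females and 0.503 to 1.33 in CC040 males, against 0.625 to 36.7 (median 7.11), with a difference of -1.51 that was not called (unadjusted p 0.0233).

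**Figure D2:**
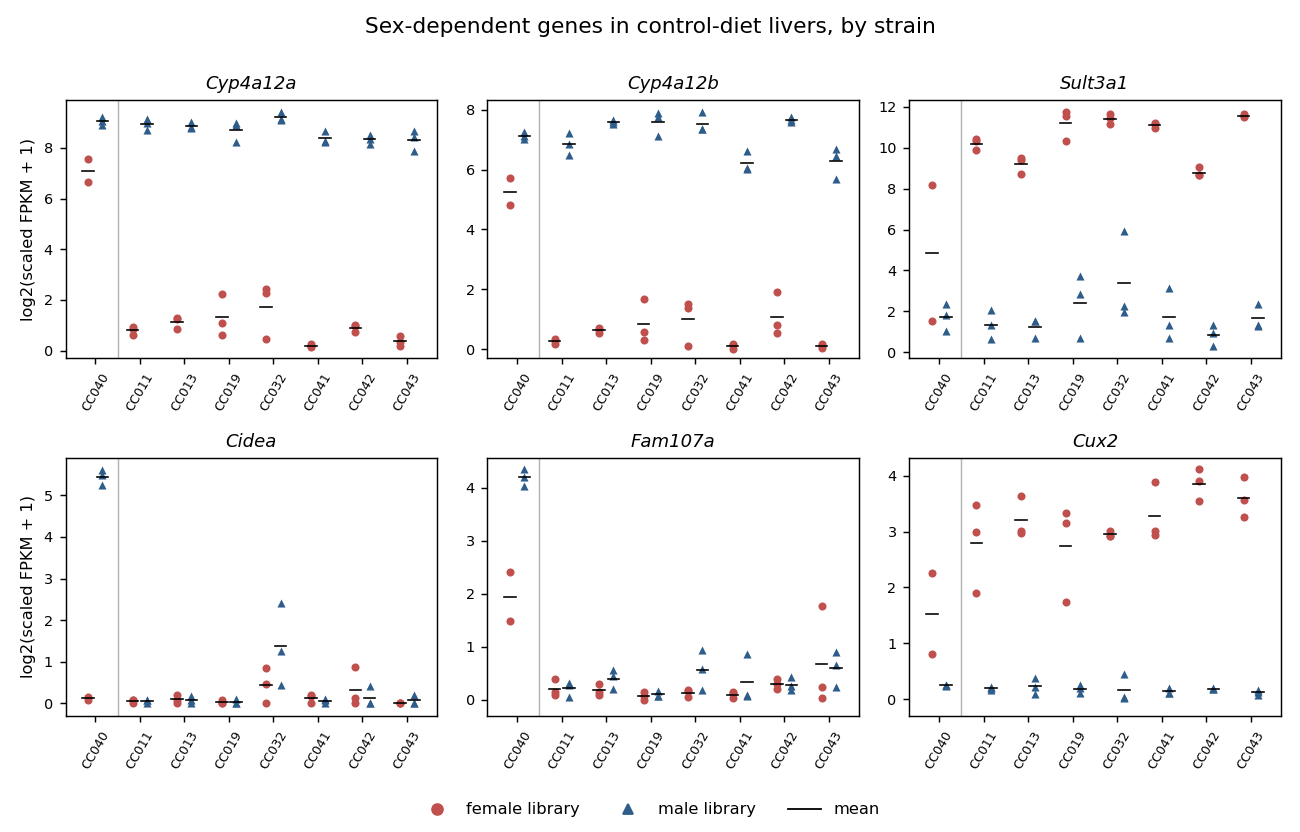
Sex-dependent genes in control-diet livers by strain, 1 point per library with a line at the mean, females and males marked apart, on a log2(value + 1) axis, with CC040 left of the others. CC040 females stand at 99.0 and 189 for Cyp4a12a against at most 4.46 in other females, and CC040 males stand alone for Cidea.

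Genes whose 5 CC040 libraries did not overlap with the 42 others were counted next, whatever their p. There were 106 (0.879% of those tested), 45 with CC040 above (0.373%) and 61 with CC040 below (0.506%). Of these, 98 had an unadjusted p under 0.05 and 12 were called. Each of the 7 other strains in the place of CC040 gave between 59 and 159 such genes. They were unevenly placed along the genome: 28 of 932 tested genes of chromosome 2 (3%) and 12 of 481 of chromosome 13 (2.49%) were among them, and none on chromosomes 4, 6, 8, X and Y.

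Runs of 3 or more such genes, with starts no more than 10 Mb apart, held 77 of the 106 (72.6%). With another strain in the place of CC040 the share was 29.7% (CC041) to 70% (CC042), in 5 to 20 runs. The largest of the 12 runs lay on chromosome 2, with gene starts between 4717831 and 36136398, where 25 of 229 tested genes (10.9%) did not overlap, 10 above and 15 below the other strains. It holds Mrrf, Hacd1 and Kin, described above. The run begins and ends with genes without overlap by definition, which raises its share, and the same holds for the runs below. Camk1d, a calcium-dependent kinase in the same run, was 1.06 and 1.27 in CC040 females and 1.08, 1.04 and 1.01 in CC040 males, against 6.05 to 54.0 (median 27.8). Every other strain was far above CC040, but Camk1d varied so much among them that its difference of -3.56 (SE 0.71) was not called (adjusted p 0.184).

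Other members of the chromosome 2 run went the other way. Dhtkd1, a subunit of the mitochondrial dehydrogenase that acts in lysine breakdown, chosen after its values were seen, was 86.8 to 106 in CC040 against 13.5 to 69.5 (median 24.6). Fam129b, a protein of the niban family, was 20.8 and 19.6 in CC040 females and 54.3, 67.5 and 34.4 in CC040 males, against 1.82 to 12.5, a difference of 2.51 that was not called (adjusted p 0.0682). Ankrd16, an ankyrin-repeat protein, was 7.04 to 8.95 in CC040 against 2.73 to 4.61 (difference 0.95, adjusted p 0.0878).

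A run of 11 of 135 tested genes (8.15%) lay on chromosome 13, with starts between 55417958 and 90935349, and holds F12 and Cast. Fbxl21, an F-box protein in it, was 0.416 to 0.711 in CC040 against 1.91 to 6.97 (difference -1.51, adjusted p 0.0638). On chromosome 3, 8 of 106 tested genes with starts between 100938860 and 122245557 did not overlap, Prok1 and Gclm among them. On chromosome 14, a run of 3 genes ends with Cpb2. For the other strains in the place of CC040, the longest run held 9 to 18 genes.

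**Figure D3:**
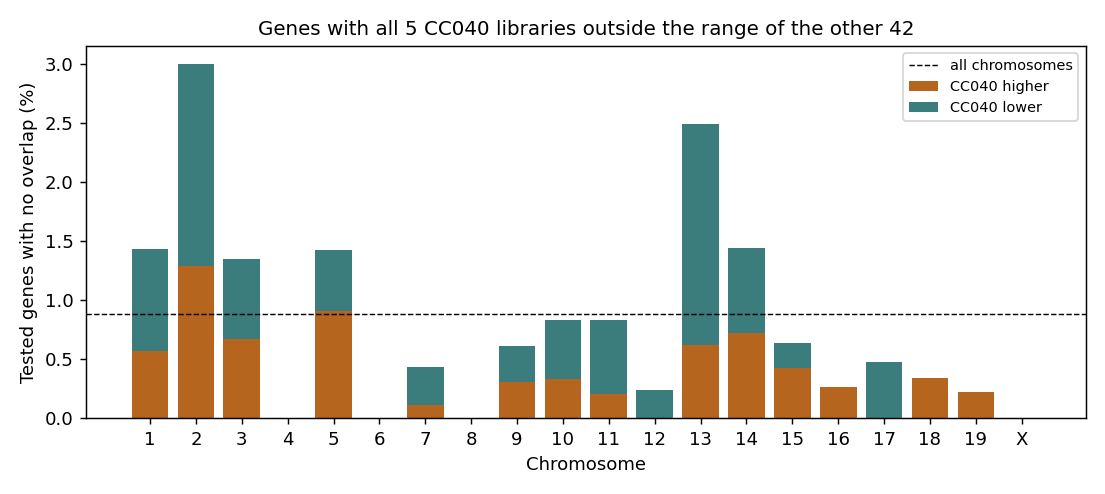
Percent of tested genes on each chromosome whose 5 CC040 libraries do not overlap with the 42 others, split into genes with CC040 above and below. The dashed line is the share over all chromosomes, 0.879%, and chromosome 2 is highest with 28 of 932 genes, 3%; chromosome Y, with none, is not drawn.

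The HF/HS livers of the same strains, which the control-diet tests did not use, gave the strain difference a second measurement, with the strains themselves unchanged. On HF/HS, 14 of 12154 genes were called (0.115%), 9 higher (0.074%) and 5 lower (0.0411%). At an unadjusted p under 0.05 (limma) there were 542 (4.46%), in either direction. Of the 17 genes called on the control diet with values in all 5 libraries, 16 were tested on HF/HS. All 16 had the same direction with an unadjusted p under 0.05 (limma). Of these, 6 (Mreg, Fam107a, Cpb2, Cast, Bco2 and Mrrf) were also called there. Genes tested on HF/HS again had a mean of at least 1 with CC040 included. Fam107a, with a mean of 0.334 in the 42 others, passed only through CC040, which largely set its direction there. Amica1 did not pass. Its CC040 HF/HS levels were 0.475 and 4.96 in females and 2.55, 1.28 and 3.38 in males, against 0.178 to 1.16 in the others. Cpb2 was 55.4 to 84.9 in CC040 HF/HS livers against 285 to 2127 (median 477), a difference of -2.90 (adjusted p 0.00122). Mreg was 1.86 to 3.55 against 11.6 to 54.2, a difference of -3.18 (adjusted p 0.0276), and Cast was 40.2 to 52.3 against 17.4 to 25.8, a difference of 1.09 (adjusted p 0.0145). Without CC040 HF/HS male 1 the same genes were called except Bco2 (adjusted p 0.0623), and without CC032 HF/HS male 2 all 6 were. Gclm was 32.9 to 47.6 against 57.5 to 131.8, again with no overlap, and just missed the threshold (-1.28, adjusted p 0.0579).

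Of the 106 genes without overlap on the control diet, 104 were tested on HF/HS; all 104 had the same sign there, and 44 did not overlap there either (41.5% of the control-diet list and 64.7% of the 68 genes without overlap on HF/HS, which were 0.559% of those tested). Between the ends of the chromosome 13 run, 11 of 135 tested genes did not overlap on HF/HS. It was 15 of 229 for the chromosome 2 run and 6 of 106 for the chromosome 3 run. For a run of 4 genes on chromosome 5 and for both runs on chromosome 11 it was 0, and for the run on chromosome 10 it was 1. These counts take all tested genes of the interval, not the members of the run alone. Of the 619 genes with an unadjusted p under 0.05 on the control diet, 602 were tested on HF/HS. There, 325 had one in the same direction and 1 in the opposite direction, against 542 of 12154 (4.46%) over all genes in either direction. The share of all genes with the same sign on both diets was not counted.

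Of the sex gaps described above, those of Cyp4a12a, Cyp4a12b, Cidea and Fam107a were not called on HF/HS. Cyp4a12a was 172 and 171 in CC040 HF/HS females and 616 to 635 in CC040 HF/HS males, against 0.49 to 57.6 in other HF/HS females and 357 to 642 in other HF/HS males. The CC040 females again lay above all other females, but the sex gap difference of -4.98 was not called (adjusted p 0.826). Cidea was 0.3 and 0.553 in CC040 HF/HS females and 113, 87.0 and 139 in CC040 HF/HS males, against up to 94.4 in other HF/HS males, so the groups overlapped there and the sex gap difference of 5.45 was not called (adjusted p 0.999). On HF/HS the sex gap was called for 12 genes (0.0987%), among them Plin4 (2.22, adjusted p 0.0227) and Cidec (3.34, adjusted p 0.0186), with both larger in CC040. Chil3 was 74.8 in CC040 HF/HS female 3 and 2.43 to 5.44 in the 4 other CC040 HF/HS libraries. The same library had S100a8 at 994 and S100a9 at 884, against 10.6 to 19.6 and 12.1 to 20.6 in the 4 others, and their part in its Chil3 level was not tested.

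**Figure D4:**
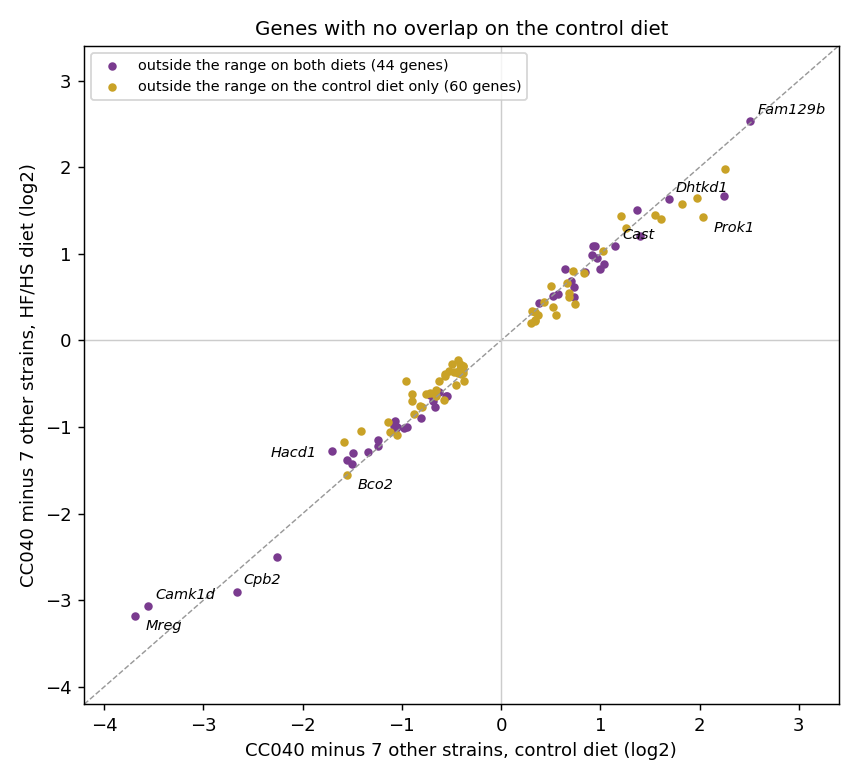
Difference of CC040 from the 7 other strains on HF/HS (vertical) against the control diet (horizontal), log2(value + 1) scale, for the 104 genes without overlap on the control diet that were tested on both diets, coloured by whether they did not overlap on HF/HS either (44). The dashed line marks equal differences, and all 104 lie on the same side of 0 on both diets.

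Of the pathway lists without a called member, some are described here by counts and medians, beside a median of -0.02 and 5.13% of genes with an unadjusted p under 0.05 over all genes. Of 24 genes of cholesterol synthesis and uptake, none was called, 22 were lower in CC040, and 4 (Pmvk, Cyp51, Lss and Hsd17b7) had an unadjusted p under 0.05. Pmvk, phosphomevalonate kinase, was 74.0 and 56.1 in CC040 females and 58.8, 88.6 and 36.7 in CC040 males, against 56.1 to 251 (median 128), a difference of -1.04 (unadjusted p 0.0036). Cyp51, the lanosterol demethylase, chosen after its values were seen, was 64.9 and 53.5 in CC040 females and 20.8, 26.3 and 17.3 in CC040 males, against 27.1 to 155, so the 3 males lay below every other library and the females did not. The list median was -0.48, with -0.07 in females and -0.66 in males, and -0.13 on HF/HS.

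Of 42 interferon response genes, none was called, 36 were higher in CC040 and the median was 0.66, with 0.41 on HF/HS. Only 1 of the 42 had an unadjusted p under 0.05, no larger a share than the 5.13% over all genes. It was Ifit3, an interferon-induced antiviral protein (p 0.0127), which was 19.2 and 30.0 in CC040 females and 16.3, 11.6 and 20.2 in CC040 males, against 1.97 to 15.6 (median 7.71). Of the 5 CC040 libraries, 4 lay above all others.

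Of 35 urea cycle and amino acid genes, none was called, 30 were higher in CC040, 3 (Tdo2, Gpt2 and Sds) had an unadjusted p under 0.05, and the median was 0.25. Tdo2, the tryptophan dioxygenase of hepatocytes, was 1483 to 2064 in CC040 against 426 to 1657 (median 1020; difference 0.78, unadjusted p 0.0031). Of 25 carbohydrate genes, none was called and 4 had an unadjusted p under 0.05, all higher; Pck1, the enzyme that commits to gluconeogenesis, was 1712 to 2416 against 363 to 2843 (difference 1.06). Of 18 periportal genes, 3 had an unadjusted p under 0.05, all higher, led by Etnppl, a phospholyase of phosphoethanolamine, at 89.1 to 222 against 22.3 to 101 (difference 1.51, unadjusted p 0.0012). Of 16 clock genes, 1 was higher and 1 lower at that level: Ciart, a circadian repressor, was 18.7 to 28.1 against 0.286 to 44.0 (difference 2.61), and Arntl, an activator of the clock, had a difference of -1.46. The labels give no hour of collection. Stellate cell markers summed to 211 to 256 in CC040 against 189 to 434 (median 325), and the part of cell makeup in these list medians was not tested. Of 22 ribosomal protein genes 21 were lower in CC040, 1 with an unadjusted p under 0.05 (median -0.24, and -0.14 on HF/HS), and 12 of 16 genes whose RNA lacks a poly(A) tail were lower, none with an unadjusted p under 0.05 (median -0.29). Their part in the other results was not tested.

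**Figure D5:**
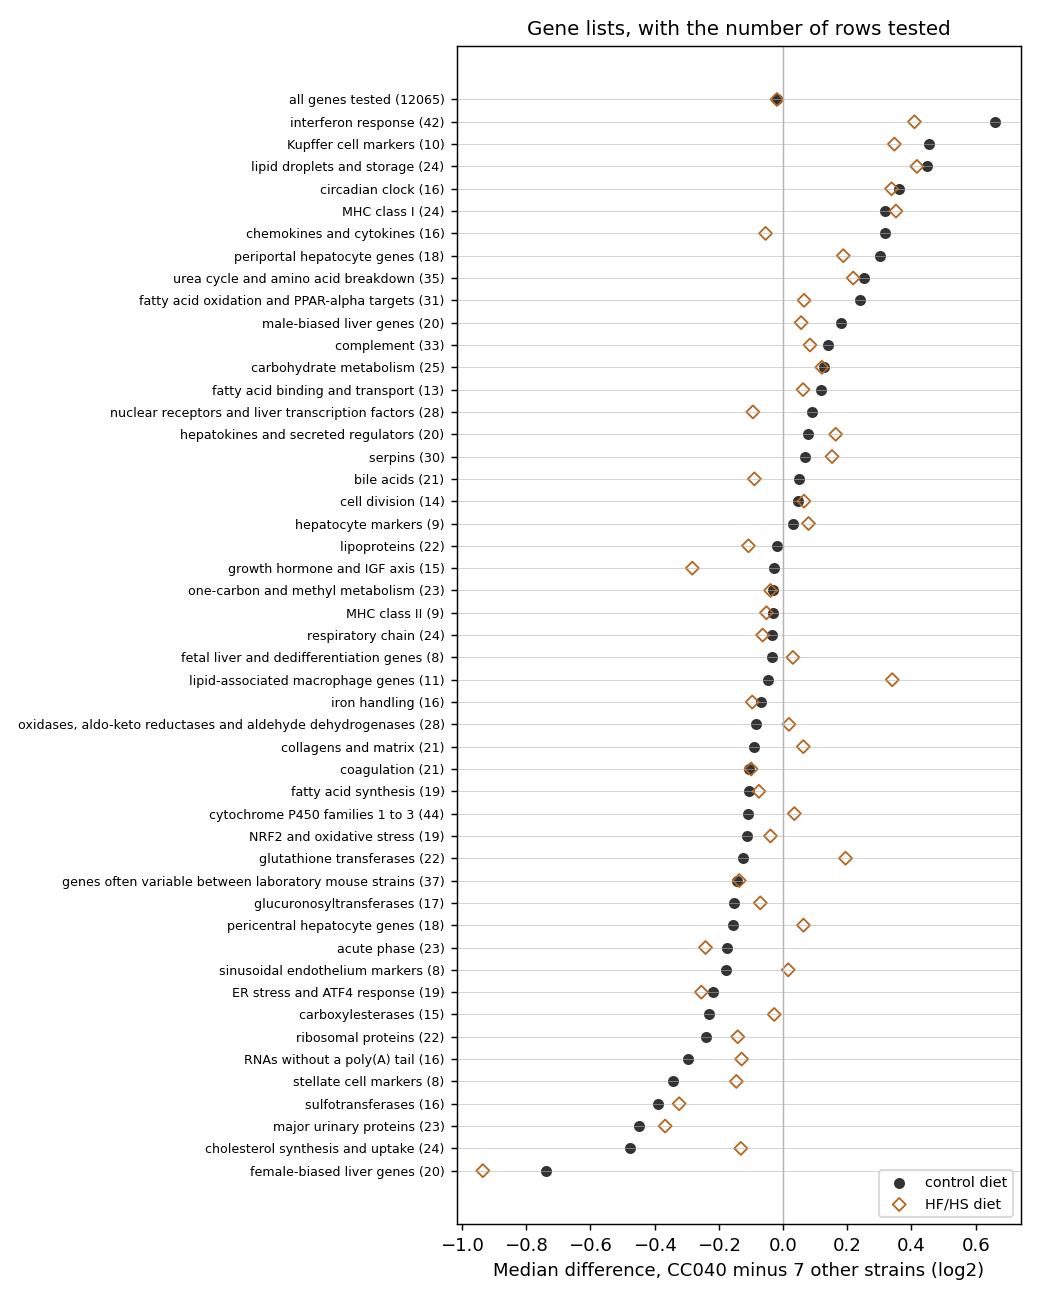
Median difference of CC040 from the 7 other strains per gene list on the control diet (filled) and on HF/HS (open), log2(value + 1) scale, for lists with at least 8 genes tested and for all genes (top). The interferon response list is at 0.66 on the control diet and the cholesterol list at -0.48.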

How the data were processed

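RNA of mouse livers was measured by sequencing, 1 library per sample, and the authors deposited 1 table of 24883 genes by 120 libraries. Its values are FPKM-like levels that the authors rescaled before deposit so that the 75th percentile of every library is about 10; the formula is not given in the sources used here. TopHat2 2.1.1, Bowtie2 2.2.5.0, Cufflinks 2.2.1 and the mm10 build are named per the submitters' processing notes, without roles or order. The labels' protocols name 500 ng of miRNeasy total RNA and 2 kits, for mRNA and for depletion of ribosomal RNA, without assigning them to libraries; whether counting used strand is not given in the sources used here. Depth is unknown, so no counting error can be given.

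Values were taken as log2(value + 1) for genes whose mean over the 47 libraries compared was 1 or more. For each gene a linear model with strain and sex gave a level per strain, and limma 3.58.1 (R 4.3.3; trend and robust prior) compared CC040 with the mean of the other 7 on these 8 levels, two-sided, with Benjamini-Hochberg adjustment over all genes tested. The sex gap was tested in the same way on the male minus female difference of each strain. The procedure was tested on simulated data. Pseudocounts, filters, scalings, added strains, sexes, the replicate number as a block, the library as a unit and leaving out each library or strain were the alternatives. Equal columns were left out. Same-numbered libraries of different groups did not deviate together on the whole (median correlation 0.0116 over 345 pairs, -0.0146 for other numbers). No pairing by number was seen in this measure, which cannot exclude shared handling.

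Genes named are the called ones with the largest differences and lowest p, those with the widest gap between the groups, the called sex gaps with the lowest p, and the leading member of each of 57 gene lists. Genes outside this rule are marked in the text as chosen with their values known, as were Aox1, Aox3, Elovl3, Lss, Hsd17b7, Gpt2, Sds and Arntl. The strain, the comparison and the gene lists were chosen with earlier results of these data known. Of the genes called for the sex gap, 1 is not reported here. Positions count from 1.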

Additional observations from a re-analysis of the deposited data

Results flagged for a closer look

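Of the 19 genes whose male minus female difference differed between CC040 and the 7 other strains in the limma test of the difference itself (adjusted p under 0.05), 5 are given here. It was smaller in CC040 by -5.81 for Cyp4a12a and -4.65 for Cyp4a12b, and larger by 5.23 for Cidea, 2.13 for Fam107a and 1.98 for Amica1 (log2 scale).

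Among the 5 CC040 control libraries, 1 library stood apart from the rest for 16 of 94 genes examined. The measure was Dixon's ratio of its gap to the whole range on the log2(value + 1) scale (critical value 0.71). Chance flags about 1 in 20 groups, but the 16 cannot be set against that rate. The 5 libraries pool 2 females and 3 males, and many of the genes were named from these same values. A gene above 0 in 1 library alone has a ratio of 1 by construction. Female 1 was highest for Sult3a1 (ratio 0.81), Cyp3a41a (0.808), Cyp2c37 (0.77), Cux2 (0.718) and Sult2a1 (0.717), all of the female-biased genes, and lowest for 1810055G02Rik (0.881). It alone was above 0 for Mir1948, Mir26b, Mir7063, Mir877 and Snord69 (ratio 1). Male 2 alone was above 0 for Mir294 and Mir3075 (ratio 1). Female 2 was lowest for Clec4g (0.854) and Lipc (0.714) and highest for Camk1d (0.721), whose 5 values nevertheless lay between 1.01 and 1.27.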

How the results depend on the processing

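Against 23 calls on the control diet, a pseudocount of 0.1 gave 11, no filter on low values 98, a mean of at least 5 gave 7, the library as the unit 4734, and leaving out genes above 0 in fewer than 3 libraries (added after seeing the data) 14. Against 19 calls for the sex gap, the same pseudocount gave 4, no filter 56, a mean of at least 5 gave 3, and the added filter 10. Against 14 calls on HF/HS, the same pseudocount gave 4, no filter 117, a mean of at least 5 gave 3, adding CC003 and CC060 gave 9, adding the equal columns as labelled 8, females only 6, the mean of the sex means 7, the library as the unit 3498, and the added filter 4. Against 106 genes without overlap, adding CC003 and CC060 left 44, and females only and males only, with fewer libraries to overlap, gave 650 and 455. The cause of the other changes was not tested. Quantile and size factor scaling gave 24 and 23 calls on the control diet. With the replicate number as a replicate block the counts were 23 for the control diet, 19 for the sex gap and 14 for HF/HS, and all 23 control-diet calls were kept.

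Leaving out 1 library or 1 strain gave 19 to 32 calls on the control diet, 17 to 26 for the sex gap, 5 to 20 on HF/HS and 105 to 153 genes without overlap. The HF/HS count fell to 5 without strain CC013 or CC042, to 8 without CC041 or CC043, and to 7 without CC040 HF/HS male 1. Mreg, Cpb2, Gclm and Bco2 were called in all 69 alternatives run for them and Fam107a in all 67.

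Directions turned for genes that were not called or rest on 1 library. In females only, Bco1 was at 0.022 and Cfd at -0.58. In males only, Cyp3a41a was at 1.21, Elovl3 at -0.86, Snord69 at -0.59 and Sult2a1 at 0.14. Leaving out 1 library moved Cyp3a41a between -1.51 (without CC040 male 2) and 0.64 (without CC040 female 2), Elovl3 between -0.21 (without CC040 female 2) and 0.75 (without CC040 male 3), and Snord69 between -0.60 (without CC040 female 1) and 2.72 (without CC040 female 2).

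With 1 CC040 strain, its spread is taken from the other strains, and with 2 CC040 females each carries much of a female value. The table gives no depth, so values near 0 have no stated precision.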

Other observations

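Neighbouring aldehyde oxidase genes on chromosome 1 were high in CC040 without being called. Aox3, an oxidase of aldehydes and nitrogen-ring drugs in the rodent liver, was 262 and 598 in CC040 females and 1081, 919.9 and 1265 in CC040 males, against 39.1 to 378 (median 119.8), a difference of 2.36 (limma, adjusted p 0.206). Only CC040 female 1 lay within the range of the other strains. Aox1 was 64.9 and 103 in CC040 females and 255, 222 and 283 in CC040 males, against 11.4 to 88.3, a difference of 2.27 (unadjusted p 0.0049).

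The diet of 1 CC040 female is unknown, since its values stand under both a control and an HF/HS label. It had Cyp4a12a at 99.9989, Cyp3a41a at 545, Sult3a1 at 84, Cux2 at 3.71, Mreg at 4.53 and Cpb2 at 68.7. Its Cyp4a12a lay in the range of the 4 other CC040 females, and above all females of the 7 other strains on either diet.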
